A study of Bos taurus with 24 samples.

Results

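Keratins, desmosomes and hemidesmosomes belong to the epidermis, and the 37 genes described here were chosen as a list of such genes and looked up by symbol in RNA-Seq tables of bovine dermal fibroblasts. All 37 were found, each on 1 row, among 27371 gene symbols. They were 9 keratins, 6 desmosomal cadherins, 8 genes of the desmosomal plaque and the cornified envelope, 4 genes of adherens and tight junctions, 5 genes of the hemidesmosome and its laminin, and 5 regulators or differentiation genes of epithelium. The rule looked them up by symbol and used no level, but the list was drawn up with earlier results of these data known. Its shares set against all rows are therefore a description. The question was which of these genes reached 1 CPM (counts scaled to a common library total), in which cultures, and whether the breeds differed.

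Keratins are the intermediate filament proteins of epithelial cells and assemble as pairs of an acidic and a basic keratin. Desmosomes join neighbouring cells through desmocollins and desmogleins, whose tails bind plakoglobin and plakophilins, and desmoplakin ties this plaque to the keratin filaments. Hemidesmosomes hold basal keratinocytes to the basement membrane through an integrin, a transmembrane collagen and an anchoring laminin. Dermal fibroblasts are connective tissue cells whose filaments are made mainly of vimentin, and keratin filaments are not typical of them.

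The fibroblasts came from shoulder skin biopsies of 4 Angus (beef) and 4 Holstein (dairy) heifers in the second year of life, housed at the same site. Cells were released with collagenase, frozen at the third passage and revived for the challenge, no sort was named, lysates of duplicate wells were pooled, and 1 culture stands for 1 animal. Each culture was sampled untreated (0 h) and at 2 h and 8 h after the bacterial cell wall component lipopolysaccharide (LPS) was added at 100 ng/ml, which gave 6 groups of 4 samples. The 2 h and 8 h samples had no untreated counterpart of the same hour, so LPS and elapsed time cannot be told apart. Cultures are named below by breed and animal number.

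Total counts were 51014538 to 104406293 per sample (median 76079546), and 3 counts, taken as the limit of detection, were 0.029 to 0.059 CPM. Limits of this kind cover counting error only. The total count exceeded the number of reads in every sample, with 51014538 counts against 32672866 reads in Holstein 4 at 0 h. A count is therefore not always a separate read, and small counts can rest on fewer reads. All 10 fibroblast markers examined, among them COL1A1, DCN and PDGFRA, were at 1 CPM or more in every group and summed to 42641 to 111102 CPM per sample. In 4 samples (Angus 4, Holstein 2 and Holstein 4 at 0 h and Angus 3 at 2 h) the COL1A1 row covered fewer bases for each count, 66.2 to 67.1, where the other 20 covered 111.8 to 119.0. For the epidermal genes they did not stand apart: the ratio for JUP was 64.3 to 65.3 in the 4 samples and 64.1 to 66.9 in the rest, and for DSC3 it was 66.0 to 67.1 and 64.1 to 70.6. Results that rest on these samples are given with and without them.

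Of the 37 genes, 7 were at 1 CPM or more in all 24 samples (18.9%), 11 in some samples only, and 19 in none. Over all rows with a symbol, 42.5% reached 1 CPM in every sample and 51.5% in at least 1, so the share of the epidermal list in every sample was below that of the table as a whole, and its share in at least 1 sample (48.6%) was close to it. The 7 genes were JUP, PPL and PERP of the desmosome and envelope, the cadherin CDH3, and LAMA3, ITGA6 and ITGB4 of the hemidesmosome. DSC3 reached 1 CPM in 23 samples, DSC2 and LAMB3 in 21 each, TP63 in 16, and ESRP1 in 2. KRT5, KRT14, KRT17, COL17A1 and DSP reached it in 3 samples each and KRT7 in 1, and all of these samples were of a single culture, Holstein 1. The counts of 7 and 18 were unchanged without the 4 samples with another COL1A1 counting. In such bulk samples, fewer cells of a type and less RNA per cell cannot be told apart.

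**Figure D1:**
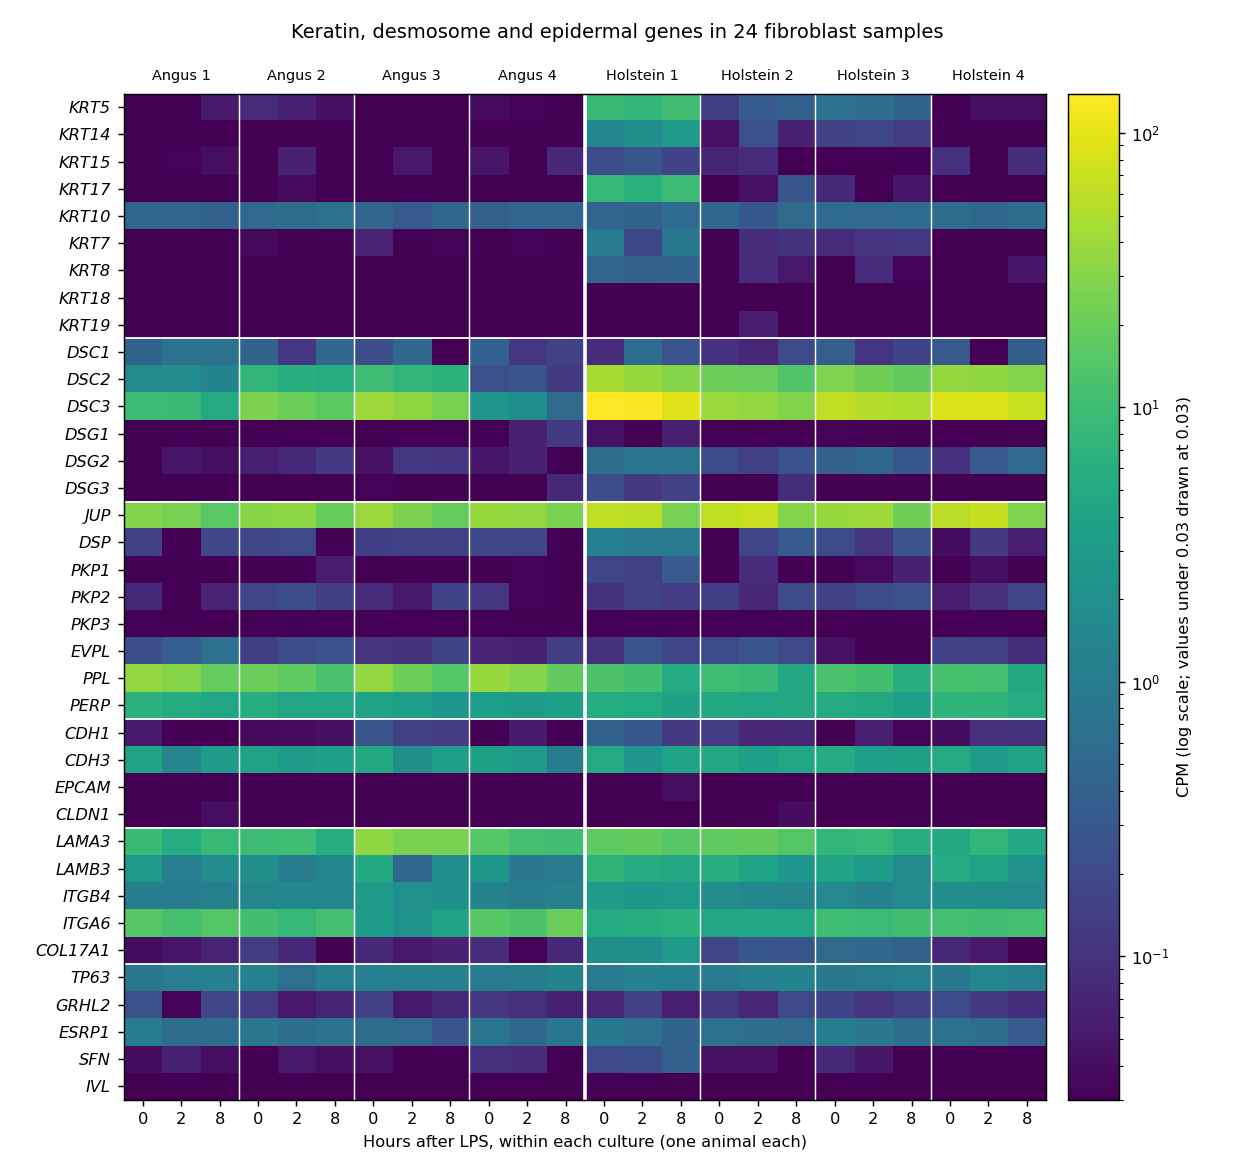
Level in CPM (log colour scale) of the 37 genes, in rows ordered by role, in the 24 samples, in columns by breed, culture and hours after LPS. The rows of KRT5, KRT14 and KRT17 are dark except in the 3 columns of Holstein 1, while JUP, PPL and LAMA3 are bright throughout and DSC2 and DSC3 are brighter in the Holstein columns.

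By role, no keratin and no desmosomal cadherin was at 1 CPM in all samples, against 3 of 8 genes of the plaque and envelope, 1 of 4 genes of adherens and tight junctions, 3 of 5 genes of the hemidesmosome and none of the 5 regulators. The number of the 37 genes at 1 CPM or more was 16 in each of the 3 Holstein 1 samples and 8 to 11 in the other 21. The lowest number, 8, was found in Angus 4 at 8 h.

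Of the 9 keratins on the list, 4 reached 1 CPM, and only in Holstein 1. A keratin outside the list, KRT80, looked up after its values were seen, was at 5.22 to 11.2 CPM in all 24 samples. KRT5, with KRT14 the keratin pair of basal keratinocytes (chromosome 5, 27541428 to 27547279), was at 9.07, 8.03 and 10.4 CPM in Holstein 1 at 0, 2 and 8 h. The other Holstein cultures, 2 to 4, were at 0.145, 0.647 and 0.0196 CPM at 0 h, and no Angus sample was above 0.0847. The Holstein 1 level stood on 616, 602 and 1026 counts and was 14.0, 13.3 and 22.5 times that of the next culture at the 3 hours. KRT14 (chromosome 19, 42430195 to 42434559), the acidic partner of KRT5, was at 1.44, 2.03 and 2.80 CPM in Holstein 1. Holstein 2 and 3 were between 0.0435 and 0.236 CPM for KRT14, Holstein 4 had no count at any hour, and the Angus samples held 1 count in all. The mean over the 4 Holstein cultures, 2.47 ± 4.41 CPM for KRT5 at 0 h (SD, n = 4), thus described none of them.

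KRT17 (chromosome 19, 42472437 to 42483976), a keratin of hair follicles and of wounded epidermis, was at 8.39, 6.59 and 9.79 CPM in Holstein 1 at 0, 2 and 8 h. The highest level in any other sample was 0.288 CPM, in Holstein 2 at 8 h, and in all 4 Angus cultures at 0 h the count was 0. KRT7, a keratin of simple and glandular epithelium, was at 1.00, 0.187 and 0.868 CPM in Holstein 1 and at most 0.115 elsewhere, and KRT8 was at 0.471, 0.400 and 0.444 CPM there and at most 0.0886 elsewhere. KRT15, a second acidic keratin of basal cells, did not pass 0.28 CPM, again in Holstein 1. KRT18 and KRT19, the usual acidic partners of KRT8 and KRT7 in simple epithelium, did not pass 0.0261 and 0.059 CPM in any sample, and neither was highest in Holstein 1 at any hour. KRT10, the acidic keratin of the layers above the basal one, was the exception in being even, at 0.31 to 0.68 CPM in all 24 samples with both breeds overlapping at each hour. In the KRT10 row, however, a median of 45.5% of the counts covered the same base, so that the row was not evenly covered.

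**Figure D2:**
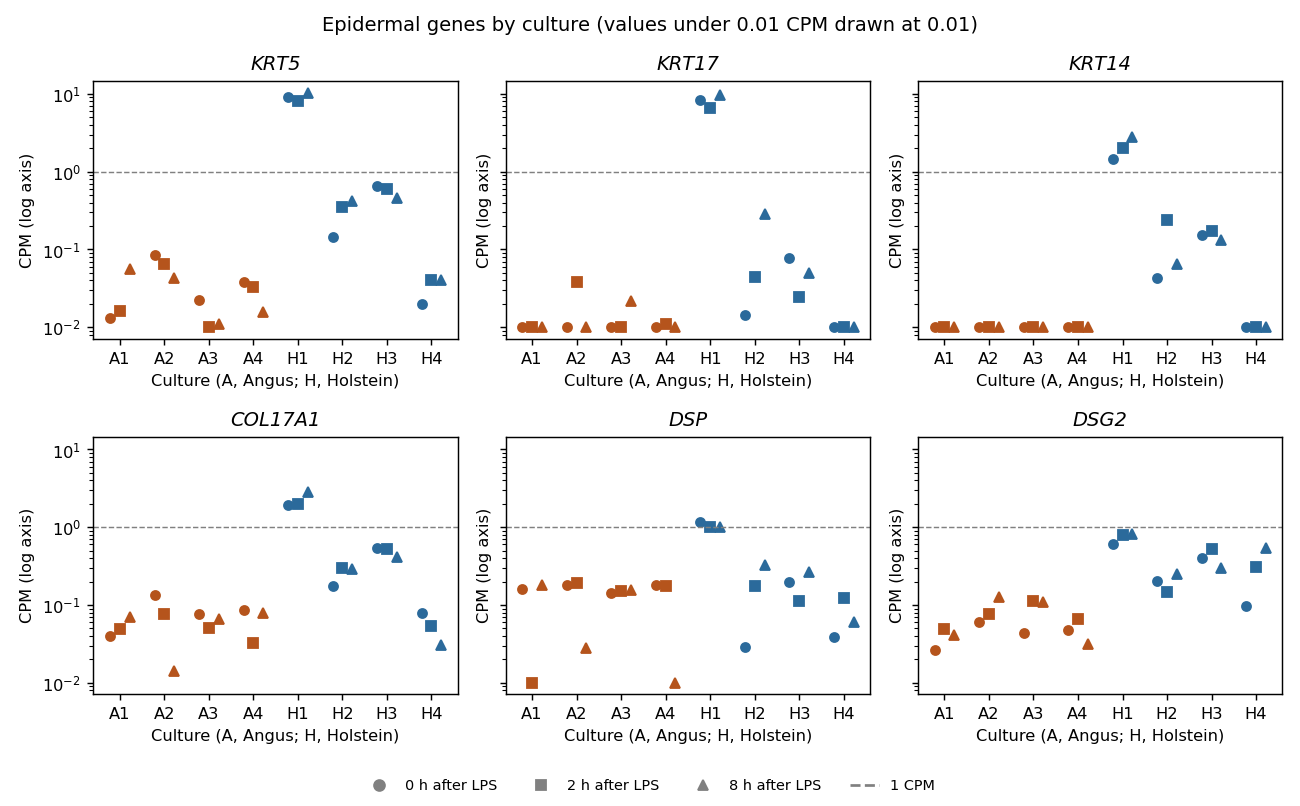
Level in CPM (log axis) of KRT5, KRT17, KRT14, COL17A1, DSP and DSG2 in each of the 8 cultures (A, Angus; H, Holstein; numbers are the animals), with a point for each hour after LPS and a dashed line at 1 CPM. For the first 5 genes only the points of H1 reach the dashed line, while the DSG2 points stay under it in every culture.

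The same culture was highest for other epidermal genes. Of the 33 genes on the list with more than 3 counts in at least 1 sample, 16 had their highest level in Holstein 1 at all 3 hours (48.5%), against 308 of 20199 rows with a symbol (1.52%). The other 7 cultures held 0 to 2 such genes each, among them LAMA3 in Angus 3 and ITGA6 in Angus 4. The 16 were KRT5, KRT14, KRT15, KRT17, KRT7, KRT8, DSC2, DSC3, DSG2, DSG3, DSP, PKP1, LAMB3, ITGB4, COL17A1 and SFN. This order of the cultures was examined after the values had been seen and carries no test. Across all rows with a symbol, 3 were at 1 CPM or more in all Holstein 1 samples and at least 10 times the highest of the other 21 samples. These were KRT5, KRT17 and KRT6A, the last a basic keratin that lies next to KRT5 on chromosome 5 and was at 3.50, 2.49 and 4.19 CPM in Holstein 1 and at most 0.179 elsewhere. By the same rule the other cultures gave 0 to 2 rows and no keratin. KRT6A and KRT6B, and KRT14, KRT16 and KRT17, have near-identical stretches, so the division of counts among them is uncertain. In Holstein 1 KRT6B was at 0.751, 0.813 and 1.01 CPM and KRT16 at 0.074, 0.200 and 0.232 CPM at the 3 hours, and how far reads of one of these genes were counted on the row of another was not tested.

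The summed fibroblast markers were at 65036 CPM or more in every Holstein sample, those of Holstein 1 included, and the 4 samples with another COL1A1 counting did not include it. DSC2 and DSC3, tested between the breeds and highest in Holstein 1, are given without it as well.

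Between the breeds, the filter of at least 1 CPM in 50% of the samples compared let 10 of the 37 genes into the test at 0 h and 11 at 2 h and at 8 h, when TP63 was added. Each of these genes was at 1 CPM or more in at least 2 samples of both breeds. For DSC2 at each hour, DSC3 at 8 h and LAMB3 at 2 h and 8 h, Holstein sufficed for the filter by itself. Angus did not, as not all of its samples reached 1 CPM, and the breed FDRs of these genes carry that limit. At 0 h, 3 of the 10 were past the threshold (FDR under 0.05, fold change of at least 2 and mean CPM above 1, likelihood-ratio test of edgeR), where 3.81% of all 20385 rows tested were (1.72% higher and 2.08% lower in Holstein). DSC2 and DSC3 were higher in Holstein and PPL was lower. At 2 h, 4 of 11 were past it, again DSC2 and DSC3 higher and PPL lower, with LAMB3 higher as the fourth (all rows 4.44%, with 2.43% higher and 2.02% lower). At 8 h, 3 of 11 were past it, DSC2, DSC3 and PPL (all rows 3.24%, with 2.21% higher and 1.03% lower). On TMM-scaled CPM (CPM corrected by the trimmed mean of M-values), 2 of 10, 4 of 11 and 4 of 11 genes had breeds that did not overlap, against 17.3%, 23.9% and 20.5% of all rows. The median log2 fold change of the genes tested was 0.47, 0.33 and 0.46 at the 3 hours, against 0.00, -0.01 and 0.01 over all rows.

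DSC2 (chromosome 24, 26340205 to 26377202) encodes a desmocollin found widely in epithelia. At 0 h it was at 1.69, 7.72, 10.3 and 0.239 CPM in Angus 1 to 4 and at 45.9, 21.7, 27.5 and 36.2 CPM in Holstein 1 to 4. At 2 h the values were 1.77, 6.14, 7.67 and 0.283 in Angus and 38.0, 20.5, 22.6 and 34.2 in Holstein, and at 8 h they were 1.37, 5.51, 6.88 and 0.126 against 30.1, 14.1, 18.3 and 28.6. Every Holstein culture was above every Angus culture at each hour, and the Angus cultures were themselves spread over more than 10-fold. Angus 4 was under 1 CPM at each hour, so DSC2 met the filter through Holstein. Holstein over Angus, the log2 fold change of DSC2 was 2.83 (standard error 0.80, FDR = 0.0115, 7.12-fold) at 0 h, with 2.78 (0.75, FDR = 0.00616) and 2.77 (0.83, FDR = 0.0172) for 2 h and 8 h. Without Holstein 1 it was 2.65 (FDR = 0.0413), 2.62 (FDR = 0.024) and 2.60 (FDR = 0.0483). Leaving out Angus 1 ended the call at 0 h (2.54, FDR = 0.061) and 8 h (FDR = 0.0832), as did leaving out Holstein 4 at 8 h (FDR = 0.0613). The quasi-likelihood F test of edgeR, which allows for the uncertainty of each gene's spread, gave an FDR of 0.0665, 0.0427 and 0.058.

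DSC3 (chromosome 24, 26396992 to 26448151), the desmocollin of the basal epidermis, starts 19789 bases after the end of DSC2 and followed the same order of cultures. At 0 h it was at 9.65, 26.7, 40.5 and 2.45 CPM in Angus 1 to 4 and at 139, 39.3, 62.3 and 89.0 CPM in Holstein 1 to 4. At 2 h the levels were 9.23, 20.8, 34.6 and 1.89 in Angus and 135, 35.7, 55.0 and 88.9 in Holstein, and at 8 h they were 5.27, 16.4, 25.2 and 0.551 against 92.1, 28.3, 49.0 and 68.9. The breeds overlapped at 0 h, where Angus 3 was above Holstein 2, and did not overlap at 8 h. At 2 h they were apart on CPM but overlapped on TMM-scaled CPM, in which Angus 3 had the smallest scaling factor of all samples (0.831). For DSC3 the log2 fold change was 2.16 (standard error 0.69, FDR = 0.0247, 4.48-fold) at 0 h, with 2.15 (0.73, FDR = 0.0305) and 2.39 (0.82, FDR = 0.0395) for 2 h and 8 h. The DSC3 calls rested on several cultures. Without Holstein 1 the values were 1.82 (FDR = 0.104), 1.76 (FDR = 0.12) and 2.10 (FDR = 0.109), and the call was also lost at each hour without Angus 1, Angus 2 or Holstein 4, at 8 h without Holstein 3, and with the F test (FDR = 0.0919, 0.0893 and 0.095). DESeq2 did not call DSC3 at 2 h or 8 h.

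Angus 4 had the lowest DSC2 and DSC3 of all cultures and Holstein 1 the highest, at each hour. The ratio of the highest to the lowest culture was 191, 134 and 239 for DSC2 and 56.7, 71.1 and 167 for DSC3. At 2 h and 8 h the order of the 8 cultures was identical for both genes, from Angus 4 through Angus 1, 2 and 3 to Holstein 2, 3, 4 and 1, and at 0 h Holstein 2 and Angus 3 changed places for DSC3. The samples with another COL1A1 counting bore on the breed difference at 0 h and 2 h but did not carry it. With these left out, the log2 fold change of DSC2 was 2.55 (FDR = 0.0162) and 3.44 (FDR = 0.000637) at those hours, and that of DSC3 was 2.04 (FDR = 0.0461) and 2.92 (FDR = 0.00131).

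The other cadherins of the same cluster on chromosome 24, which runs from DSG2 at 25913549 to the end of DSC3 at 26448151, were low. DSG2, the desmoglein of simple and basal epithelium, was at 0.0264, 0.0605, 0.0441 and 0.0479 CPM in Angus 1 to 4 at 0 h, where Holstein 1 to 4 had 0.604, 0.203, 0.406 and 0.098 CPM. Its breeds did not overlap at any hour, but the Angus values stood on 2 to 11 counts per sample. With a filter of 10 counts in place of 1 CPM, DSG2 entered the fit at 2 h (log2 fold change 2.46, standard error 0.58) and 8 h (2.63). Its Holstein samples sufficed for that filter at both hours. Of the Angus samples only Angus 3 reached 10 counts, with 11 at 2 h and 10 at 8 h. The test was thus open to DSG2 because it was higher in Holstein, and no FDR is given for it. DSG1 and DSC1 of the upper epidermis and DSG3 of the lower epidermis did not pass 0.126, 0.6997 and 0.206 CPM. For DSC1 a median of 80.9% of the counts covered the same base, in the samples with at least 20 counts. The interval between DSC2 and DSC3, a row without a gene (chromosome 24, 26377203 to 26396991), averaged 1.22 CPM over the Angus cultures and 8.24 CPM over the Holstein cultures at 0 h, with the same order of cultures as DSC2. The row that follows DSC3 (26448152 to 28992665), also without a gene, averaged 29.4 and 71.7 CPM and had the order of DSC3. DSG4, which lies between DSG3 and DSG1 in the cluster, averaged 0.152 and 0.087 CPM.

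**Figure D3:**
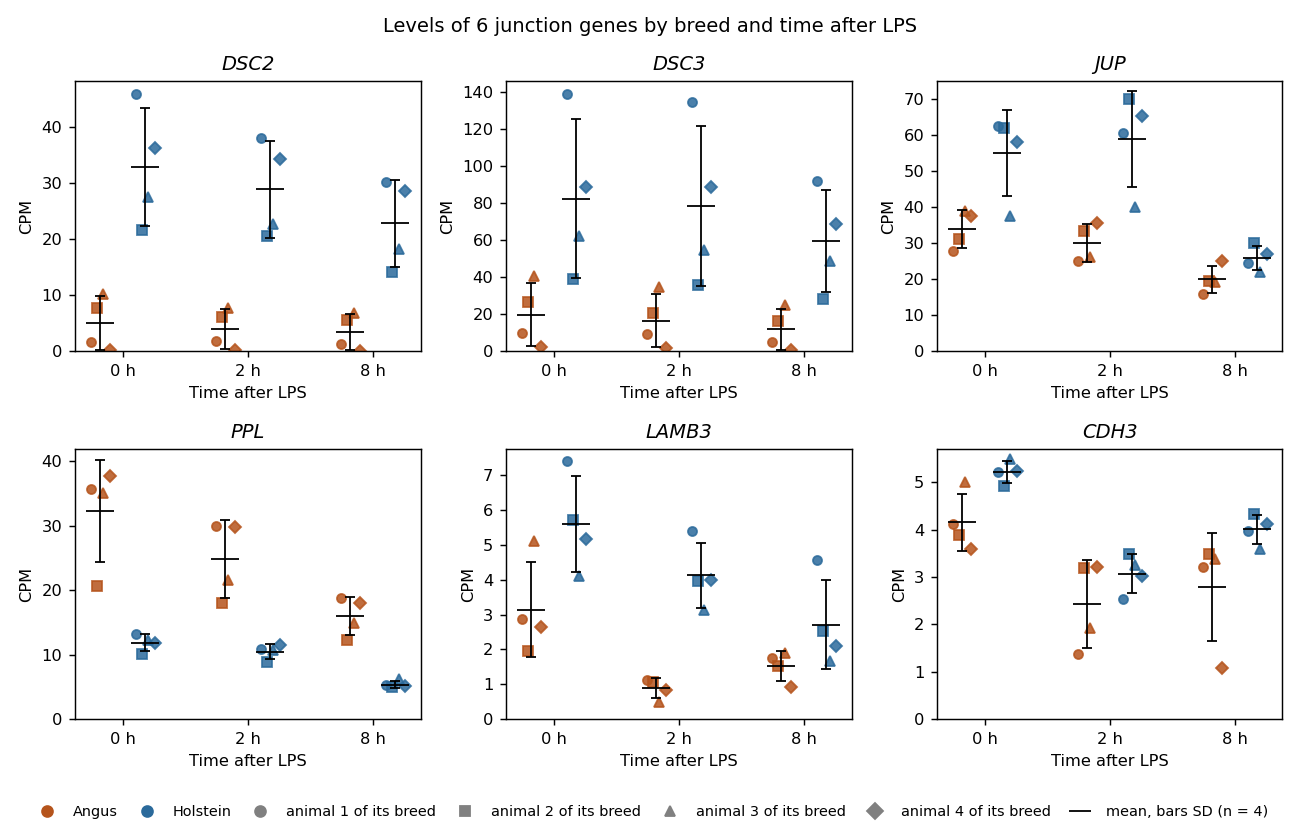
Level in CPM of DSC2, DSC3, JUP, PPL, LAMB3 and CDH3 at 0, 2 and 8 h after LPS, with a symbol for each animal, a black line for the mean and bars for the SD (n = 4). The Holstein points of DSC2 lie above the Angus points at every hour, those of PPL below, and those of LAMB3 are apart at 2 h only.

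PPL (chromosome 25, 3965953 to 4030939) encodes periplakin, a plakin of desmosomes and of the cornified envelope, and was the only tested gene of the list that was lower in Holstein past the threshold. At 0 h it was at 35.7, 20.6, 35.1 and 37.8 CPM in Angus 1 to 4 and at 13.2, 10.1, 12.3 and 11.8 CPM in Holstein 1 to 4. At 2 h the levels were 30.0, 18.0, 21.5 and 29.8 in Angus and 10.9, 8.84, 10.7 and 11.5 in Holstein, and at 8 h they were 18.8, 12.3, 14.9 and 18.1 against 5.29, 4.93, 6.16 and 5.10. Every Angus culture was above every Holstein culture at each hour, and the Holstein cultures were close together. The log2 fold change was -1.35 (standard error 0.21, FDR = 4.2e-08, 2.55-fold lower), -1.25 (0.18, FDR = 3.07e-09) and -1.49 (0.17, FDR = 3.22e-15) at 0, 2 and 8 h. In all 18 alternative fits at each hour, the one without Holstein 1 included, PPL stayed past the threshold, with a highest FDR of 0.0405.

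JUP (chromosome 19, 42603640 to 42616655) encodes plakoglobin, which serves desmosomes and adherens junctions alike. At 0 h it was at 27.8, 31.2, 38.8 and 37.5 CPM in Angus 1 to 4 and at 62.4, 62.0, 37.5 and 58.1 CPM in Holstein 1 to 4, with Holstein 3 inside the Angus range. At 2 h it was at 24.9, 33.2, 26.2 and 35.6 CPM against 60.5, 69.9, 39.9 and 65.2, and the breeds did not overlap. At 8 h it was at 15.9, 19.6, 19.2 and 25.1 CPM against 24.5, 30.0, 22.1 and 26.9, and they overlapped. JUP differed by less than the fold limit, at 0.80 (standard error 0.21, FDR = 0.00273), 0.96 (0.19, FDR = 2.65e-05) and 0.46 (0.15, FDR = 0.0232) on the log2 scale. On the FDR limit alone 5, 5 and 4 of the tested genes differed at 0, 2 and 8 h, where 13.8%, 20.1% and 16.5% of all rows did. JUP was among them at every hour, and without the samples with another COL1A1 counting it gave 0.69 (FDR = 0.234) at 0 h.

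Of the other plaque genes, PERP, a desmosomal membrane protein, was at 6.86, 5.64, 3.89 and 3.36 CPM in Angus 1 to 4 and at 5.55, 5.13, 5.34 and 7.59 CPM in Holstein 1 to 4 at 0 h. At 2 h the levels were 5.42, 4.47, 3.35 and 3.11 against 5.21, 4.41, 4.87 and 7.29, and at 8 h they were 4.32, 4.26, 2.52 and 3.49 against 3.71, 4.92, 3.52 and 5.66. The breeds overlapped at all hours (log2 fold change 0.37 to 0.41, lowest FDR 0.235). DSP, which encodes desmoplakin, the link to the keratin filaments, was at 1.16, 1.01 and 1.01 CPM in Holstein 1 and at 0 to 0.327 CPM in the other 21 samples. EVPL, the envelope partner of periplakin, did not pass 0.650 CPM, and its highest level at each hour was in Angus 1, not in Holstein 1. The plakophilins PKP1, PKP2 and PKP3 did not pass 0.333, 0.247 and 0.0147 CPM.

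Among the genes of adherens and tight junctions, CDH3, which encodes P-cadherin of basal keratinocytes and hair follicles (chromosome 18, 36095673 to 36140923), was at 4.11, 3.90, 5.00 and 3.60 CPM in Angus 1 to 4 and at 5.21, 4.91, 5.48 and 5.23 CPM in Holstein 1 to 4 at 0 h. Angus 3 lay within the Holstein range. At 2 h the levels were 1.38, 3.19, 1.93 and 3.22 against 2.53, 3.48, 3.26 and 3.01, and at 8 h they were 3.21, 3.49, 3.39 and 1.09 against 3.98, 4.33, 3.60 and 4.13. The breeds did not overlap at 8 h, but the log2 fold change did not pass the FDR limit at any hour (0.43, FDR = 0.073, then 0.33, FDR = 0.444, and 0.59, FDR = 0.243). CDH1, EPCAM and CLDN1, which mark epithelial cells through E-cadherin, an adhesion molecule and a claudin, did not pass 0.412, 0.0404 and 0.0415 CPM.

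Of the hemidesmosome genes, LAMB3 (chromosome 16, 75567714 to 75610921), which encodes the beta chain of the anchoring laminin, differed between the breeds mainly at 2 h. At 0 h it was at 2.87, 1.96, 5.10 and 2.65 CPM in Angus 1 to 4 and at 7.41, 5.73, 4.11 and 5.18 CPM in Holstein 1 to 4, and Angus 3 was above Holstein 3. At 2 h it was at 1.12, 1.08, 0.501 and 0.848 CPM against 5.40, 3.96, 3.14 and 4.00, and the lowest Holstein culture was well above the highest Angus culture. Only Angus 1 and Angus 2 of the Angus cultures reached 1 CPM then, so LAMB3 met the filter through Holstein, which limits its test. At 8 h it was at 1.74, 1.53, 1.89 and 0.928 CPM against 4.56, 2.54, 1.66 and 2.09, and the breeds overlapped again. The log2 fold change was 2.23 (standard error 0.27, FDR = 2.65e-13, 4.68-fold) at 2 h and stayed past the threshold in all 18 alternative fits, between 2.07 and 2.34. At 0 h it was 0.93 (0.32, FDR = 0.0329), under the fold limit, and without the samples with another COL1A1 counting it was 0.87 (FDR = 0.508). At 8 h it was 0.90 (0.36, FDR = 0.07).

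LAMA3 (chromosome 24, 33072797 to 33156975), the alpha chain of the same laminin, varied widely between cultures of the same breed. It was at 9.25, 9.66, 33.8 and 14.9 CPM in Angus 1 to 4 and at 17.2, 17.7, 8.14 and 5.08 CPM in Holstein 1 to 4 at 0 h. At 2 h the levels were 5.60, 9.99, 25.6 and 11.7 against 18.2, 18.4, 8.41 and 7.91, and at 8 h they were 9.02, 5.51, 25.1 and 10.4 against 15.3, 14.4, 6.10 and 4.82. Angus 3 was the highest culture at each hour, the breeds overlapped, and the log2 fold change at 0 h was -0.42 with a 95% interval of -1.40 to 0.55 (FDR = 0.634). It was -0.08 (-1.07 to 0.90, FDR = 0.927) at 2 h and -0.24 (-1.25 to 0.77, FDR = 0.804) at 8 h, and the intervals at all 3 hours include a 2-fold lower level in Holstein. In the LAMA3 row the deepest base was covered by 2.1% to 30.5% of the counts (median 7.43%), with the highest share in Angus 1 at 8 h. The part of this uneven coverage in the spread was not tested.

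ITGA6 and ITGB4 encode the chains of the hemidesmosomal integrin. ITGA6 (chromosome 2, 24131486 to 24217715) was at 15.3, 10.7, 3.20 and 15.7 CPM in Angus 1 to 4 and at 5.18, 4.36, 10.2 and 11.1 CPM in Holstein 1 to 4 at 0 h. The levels were 11.8, 8.17, 2.301 and 13.1 against 5.76, 4.22, 9.36 and 10.4 at 2 h, and 14.6, 11.2, 3.84 and 21.0 against 6.65, 4.50, 10.6 and 11.2 at 8 h. Angus 3 was the lowest culture for ITGA6 at each hour, and the 3 cultures lowest in ITGA6 (Angus 3, Holstein 1 and Holstein 2) were the 3 highest in LAMA3, which is given as a description over 8 cultures. The ITGA6 row overlaps the row of a microRNA gene, and its log2 fold change between the breeds was -0.42, -0.21 and -0.51 (lowest FDR 0.491).

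ITGB4 (chromosome 19, 56472336 to 56506801) did not follow ITGA6. It was at 1.03, 1.46, 2.77 and 1.31 CPM in Angus 1 to 4 and at 3.24, 1.97, 1.58 and 1.94 CPM in Holstein 1 to 4 at 0 h, at 1.06, 1.53, 2.07 and 1.09 against 2.71, 1.49, 1.24 and 2.01 at 2 h, and at 1.204, 1.45, 1.99 and 1.196 against 2.90, 1.46, 1.63 and 1.65 at 8 h. Holstein 1 was highest and Angus 3 second at each hour, the breeds overlapped, and the lowest FDR was 0.308. COL17A1 (chromosome 26, 24848929 to 24896345), the transmembrane collagen of hemidesmosomes, was at 1.94, 0.174, 0.548 and 0.0784 CPM in Holstein 1 to 4 at 0 h and at 0.0142 to 0.133 CPM in the 12 Angus samples. At 8 h it was at 2.81 CPM in Holstein 1, 6.83 times the next culture. The counts at 0 h were 132 in Holstein 1, 4 to 50 in the other Holstein cultures and 3 to 11 in Angus, and Holstein 4 lay inside the Angus range. COL17A1 did not enter the test at 1 CPM.

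TP63, a transcription factor required for stratified epithelium (chromosome 1, 78012414 to 78283420), was near 1 CPM everywhere. It was at 0.899, 1.22, 1.14 and 0.967 CPM in Angus 1 to 4 and at 0.972, 0.957, 0.888 and 0.921 CPM in Holstein 1 to 4 at 0 h. At 2 h it was at 1.11, 0.654, 1.197 and 1.09 CPM against 1.28, 1.196, 0.939 and 1.41. At 8 h it was at 1.204, 1.16, 1.18 and 1.29 CPM against 1.23, 1.36, 1.13 and 1.14, and the breeds overlapped. The TP63 row is long, and per kilobase of its span it held 0.0041 CPM, below the 0.0049 of the lower of its neighbouring intervals without a gene. A median of 42.8% of its counts covered the same base, so these values were not taken as a level of the transcript. ESRP1, an epithelial splicing regulator, was at 0.286 to 1.09 CPM in all samples and reached 1 CPM in Angus 1 and Holstein 3 at 0 h. GRHL2, SFN and IVL, an epithelial transcription factor, a keratinocyte protein and a component of the cornified envelope, did not pass 0.251, 0.414 and 0.0294 CPM.

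**Figure D4:**
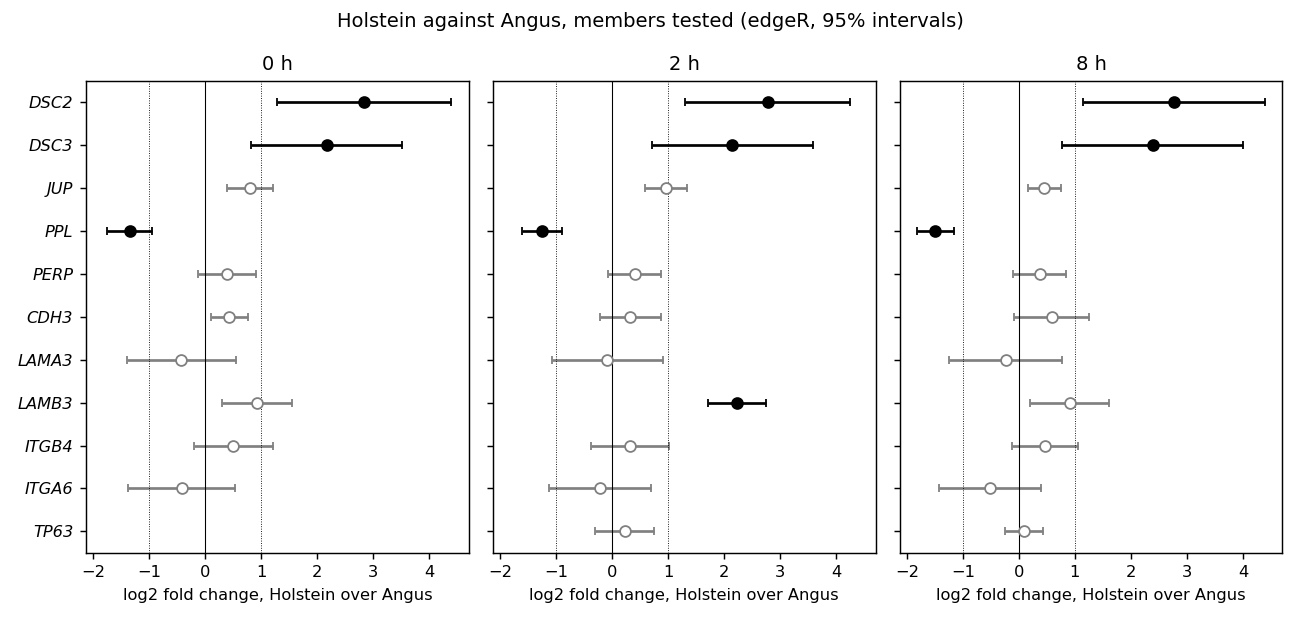
Log2 fold change, Holstein over Angus, of the tested genes at 0, 2 and 8 h, with 95% intervals from edgeR (4 animals a breed), black where the gene was past the threshold and open grey where it was not, and dotted lines at a 2-fold difference. DSC2 and DSC3 lie to the right with wide intervals, PPL lies to the left with narrow ones, and LAMB3 lies past the dotted line at 2 h only.

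For the change after LPS, the 8 cultures of both breeds were combined. At 2 h none of the 11 genes tested was past the threshold (all rows 2.82%), with the likelihood-ratio test, the F test or DESeq2, and 1 had an unadjusted p under 0.05. That gene was CDH3, which fell by 0.71 on the log2 scale (standard error 0.18, FDR = 0.000895, 1.63-fold lower), from 4.15 ± 0.60 to 2.43 ± 0.92 CPM in Angus and from 5.21 ± 0.23 to 3.07 ± 0.41 CPM in Holstein (SD, n = 4). CDH3, PPL and LAMB3 were lower at 2 h than at 0 h in all 8 animals, a pattern that 18.6% of all rows tested had. When each animal was compared with itself (animal as a replicate block), LAMB3 was past the threshold at 2 h (-1.01, standard error 0.26, FDR = 0.000616), but not with the F test and the block, where the fold change was under 2 (FDR = 0.00909). At the FDR limit alone, DSC2, PPL, CDH3 and LAMB3 were lower under the block, as were 25.3% of all rows. Without the block CDH3 alone passed the FDR limit, as did 22% of all rows.

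At 8 h 3 of the 11 genes were past the threshold, all lower (all rows 1.42%, of which 0.353% lower). JUP fell by 1.05 on the log2 scale (standard error 0.21, FDR = 2.08e-05), from 33.8 ± 5.22 to 19.95 ± 3.82 CPM in Angus and from 55.0 ± 11.8 to 25.8 ± 3.37 CPM in Holstein. PPL fell by 1.12 (0.36, FDR = 0.021), from 32.3 ± 7.86 to 16.03 ± 2.98 CPM and from 11.8 ± 1.32 to 5.37 ± 0.547 CPM. LAMB3 fell by 1.12 (0.33, FDR = 0.00894), from 3.14 ± 1.36 to 1.52 ± 0.423 CPM and from 5.60 ± 1.38 to 2.71 ± 1.28 CPM (SD, n = 4 for each). The median log2 fold change of the 11 genes was -0.53, against -0.01 over all rows.

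These 3 calls lay near the limits of fold change and FDR. Without the 4 samples with another COL1A1 counting, 3 of which were 0 h samples, PPL alone was past the threshold (-1.16, FDR = 0.0348), JUP gave -0.82 (FDR = 0.00234) and LAMB3 -1.05 (FDR = 0.0604). Without Holstein 1 the single call was LAMB3, since JUP gave -0.98, as it did without Holstein 4, and the FDR of PPL was 0.0505. PPL was also lost without Angus 3 (FDR = 0.0586) and with the F test (FDR = 0.0511).

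The direction at 8 h was shared by the cultures. The level fell from 0 h in all 8 animals for 8 of the 11 genes (DSC2, DSC3, JUP, PPL, PERP, CDH3, LAMA3 and LAMB3), on the log2 of TMM-scaled CPM with 0.5 CPM added, where 15% of all rows fell in all 8. On unscaled CPM this held for 7 of the 8, with PERP as the exception. JUP changed by -0.79, -0.68, -1.05 and -0.76 in Angus 1 to 4 and by -1.37, -1.13, -0.77 and -1.28 in Holstein 1 to 4. DSC2 changed by -0.23, -0.47, -0.60 and -0.28 in Angus and by -0.64, -0.69, -0.60 and -0.51 in Holstein. Under the replicate block by animal, the same 8 genes were under an FDR of 0.05, all lower, with both the likelihood-ratio test and the F test, where 21.2% and 22% of all rows were lower at that limit. The log2 fold change under the block was -0.59 for DSC2 (standard error 0.06, FDR = 6.48e-22), -0.79 for DSC3 (0.15, FDR = 8.62e-07), -1.14 for PPL (0.08, FDR = 4.73e-42) and -0.99 for JUP (0.09, FDR = 2.34e-26), so JUP missed the fold limit there. ITGB4, ITGA6 and TP63 did not pass the FDR limit under the block (FDR = 0.0719, 0.482 and 0.1).

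**Figure D5:**
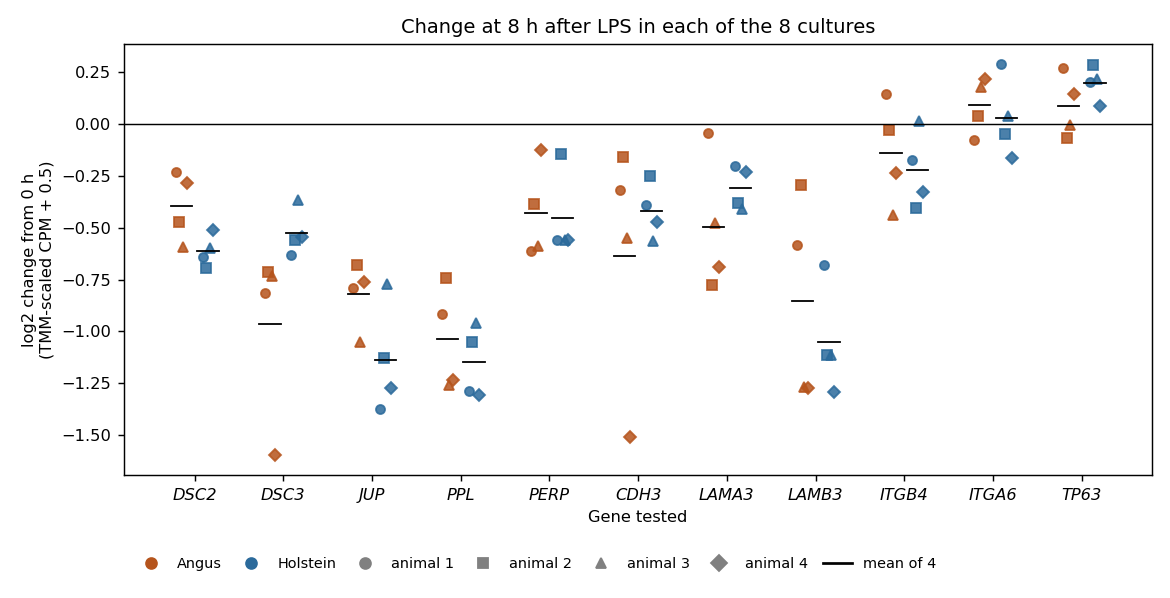
Change from 0 h to 8 h after LPS, as log2 of TMM-scaled CPM with 0.5 added, for the 11 tested genes, with a symbol for each animal coloured by breed and a black line for the mean of 4. All 8 symbols lie under 0 for 8 of the genes, while those of ITGB4, ITGA6 and TP63 lie on both sides.

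Whether the breeds differed in the change after LPS was put to a test of the breed by hour interaction. None of the 11 genes was past the threshold at 2 h (all rows 0.278%) or 8 h (0.0982%) with the likelihood-ratio test, the F test or DESeq2, and 1 and 0 of them had an unadjusted p under 0.05. The gene at 2 h was LAMB3, which changed by -0.95, -0.58, -2.33 and -1.24 in Angus 1 to 4 and by -0.39, -0.45, -0.28 and -0.41 in Holstein 1 to 4. Every Angus animal fell further than every Holstein animal, a separation that 9.66% of all rows tested had in either direction. The interaction was 1.31 (standard error 0.42, FDR = 0.226), the replicate block by animal gave 1.24 (0.38, FDR = 0.0328, where 4.28% of all rows were under that limit), and with the F test and the block the FDR was 0.116. LAMB3 was lowest at 2 h in Angus 3, a sample with another COL1A1 counting, and without those 4 samples the interaction was 1.19 (FDR = 0.546).

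Companion lists gave the setting of these genes. Of 13 genes of keratinocytes of the lower epidermis, which are all on the list of 37, KRT5, KRT14, KRT15, DSG3, PKP1 and SFN were under 0.1 CPM on average in every Angus group, and the list summed to 25.9 to 87.4 CPM in the Angus and 71.2 to 187 CPM in the Holstein cultures at 0 h, most of it DSC3 and LAMA3. Of 13 genes of the upper epidermis, KRT1, KRT2, FLG, LOR, CDSN and IVL were under 0.1 CPM on average in all 6 groups, and PPL and TGM3 were the only ones tested. TGM3, a transglutaminase of the cornified envelope, was lower in Holstein at 0 h (-2.80, standard error 0.69, FDR = 0.00287) and 2 h (-2.45, standard error 0.39, FDR = 2.92e-07). At 8 h its breed difference was not past the threshold. It rose at 8 h in both breeds (3.25, standard error 0.61, FDR = 3.58e-05). The rise was from 7.18 ± 3.75 to 46.1 ± 25.8 CPM in Angus and from 0.982 ± 0.962 to 33.8 ± 16.7 CPM in Holstein (SD, n = 4). TGM3 thus moved the other way from PPL after LPS. The 12 genes of simple epithelium summed to 1.02 to 3.53 CPM at 0 h, and none was tested.

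Of 22 further epithelial regulators and junction genes, 4 were tested at 0 h and 5 at 8 h. SPINT2, a membrane-bound protease inhibitor, was higher in Holstein at each hour (1.60, 1.61 and 1.57, highest FDR 5.32e-09), with 6.54 to 12.3 CPM in the Angus and 25.9 to 28.2 CPM in the Holstein cultures at 0 h. OCLN, which encodes the tight junction protein occludin, rose at 8 h after LPS (3.79, standard error 0.33, FDR = 2.5e-23), from 0.214 ± 0.037 to 2.37 ± 1.08 CPM in Angus and from 0.151 ± 0.095 to 2.91 ± 1.53 CPM in Holstein. Of 17 partners of the basement membrane and hemidesmosome, 16 were tested, and 2, 1 and 3 were higher in Holstein at 0, 2 and 8 h and none lower. COL4A2, a chain of basement membrane collagen, was among them at each hour (1.21, 1.07 and 1.21). LAMA5, another laminin chain, fell at 8 h (-1.19, standard error 0.26, FDR = 0.000206), the single gene of that list past the threshold after LPS. Of 13 tested regulators of the epithelial to mesenchymal transition and mesenchymal junction genes, FN1 was higher in Holstein at each hour (1.22, 1.17 and 1.16), TWIST2 rose at 2 h (1.05, FDR = 4.19e-14), and SNAI1 had an interaction at 2 h (1.35, standard error 0.33, FDR = 0.0123, F test FDR = 0.156).

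Markers of other cells of the skin were also examined in the same samples. In the smooth muscle and pericyte list, ACTA2 (2999 to 7733 CPM), TAGLN, MYH11 and CNN1 were at 1 CPM or more in all 24 samples. DES, RGS5 and MCAM were not. Only LAPTM5 of the leukocyte list (5.29 to 20.97 CPM), MITF of the melanocyte list and S100B of the Schwann cell list reached 1 CPM in all 24, and no endothelial gene did. Of 10 fibroblast genes COL1A1 fell at 8 h (-1.35, FDR = 0.0031), in a comparison that holds 3 of the samples with another counting of that gene. Of 8 endothelial genes, 2 were tested and VWF was higher in Holstein at 2 h (1.11, FDR = 0.015, F test FDR = 0.052) and 8 h (1.31, FDR = 0.00142, F test FDR = 0.0334), and of 8 genes of smooth muscle and pericytes RGS5 was higher at 0 h (1.33, FDR = 0.0108, F test FDR = 0.0607). No gene of the melanocyte, leukocyte or Schwann cell lists was past the threshold in any comparison. The part of other cell types in the levels of the epidermal genes was not tested.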

How the data were processed

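Messenger RNA of 24 samples from 8 cultures of dermal fibroblasts was sequenced, and base calls were made with CASAVA 1.7 per the labels. Reads that passed quality filters were aligned by the authors in NextGENe 2.3.4, on the UMD v3.1 assembly of cattle, and raw read counts per row were deposited for each sample, without normalization. The authors deposited the mean and highest coverage of each row beside the counts, and these signals served here as a check on the counting alone. A row is either the whole span of a gene with its introns or the stretch between genes, with positions on UMD v3.1. The library kit does not mark strand, so overlapping genes can share counts.

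The 37 genes and the companion lists were chosen with earlier results of these data known. Every one of the 37 genes is accounted for. Values of every sample are given for genes past the threshold or at 1 CPM in all 4 samples of a group, and companion genes are named when past the threshold (at most 5 a list and comparison, by FDR) or as defining markers. DSG4, KRT6A, KRT6B, KRT6C, KRT16 and KRT80 lie outside this rule and were chosen after their values had been seen. The result of 1 companion gene past the threshold is not reported here. CPM was taken over all 59846 rows. Rows with at least 1 CPM in 50% of the samples compared were fitted with edgeR 4.0.16 in R 4.3.3 (TMM scaling, likelihood-ratio test, Benjamini-Hochberg adjustment over all rows tested) in 7 comparisons, each on its own samples, as the methods of the study describe. A row was past the threshold at FDR under 0.05, fold change of at least 2 and mean CPM above 1. Standard errors came from the fitted model. The fits were tested on simulated counts.

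Animals were paired across hours by the labels. Deviations from the group means of same-animal samples correlated across rows with a mean r of 0.56 to 0.686 (lowest 0.521). For different animals the mean r was -0.187 to -0.227. Centring on the group means makes these values negative, so they are no separate evidence for the pairing. Alternatives were the F test, DESeq2 1.42.0, other scaling and filters, the FDR limit alone, the replicate block, and leaving out samples or animals.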

Additional observations from a re-analysis of the deposited data

Results flagged for a closer look

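In 16 of 83 groups of 4 animals examined, the highest or lowest animal stood further from the others than Dixon's 95% limit. A group was examined only if its highest sample reached 1 CPM, and for genes not tested only the highest animal was checked. KRT5, KRT14, KRT17, KRT7, DSP and COL17A1 entered through Holstein 1 alone, so the number of flags is not compared with a chance rate. Many of these groups hold levels near 0, which are skewed, and the share over all rows was not computed. A total of 14 of the 16 were Holstein 1. KRT5 was flagged at 0 h (9.07 CPM, next culture 0.647), 2 h (8.03, next 0.605) and 8 h (10.4, next 0.460). KRT14 was flagged at 1.44, 2.03 and 2.80 CPM at the 3 hours, where the next Holstein culture was at 0.154, 0.236 and 0.131. KRT17 was flagged at 8.39, 6.59 and 9.79 CPM, where the next was at 0.077, 0.044 and 0.288. KRT7 at 0 h (1.00 CPM, next 0.088), DSP at 0 h (1.16, next 0.197) and 2 h (1.01, next 0.177), COL17A1 at 8 h (2.81, next 0.411) and ITGB4 at 8 h (2.90, next 1.65) completed these.

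The flags at different hours are of the same culture and are not independent of each other. The 2 others were low animals in Angus groups. PPL in Angus 2 at 0 h was at 20.6 CPM, with the next animal at 35.1, and CDH3 in Angus 4 at 8 h was at 1.09 CPM, with the next at 3.21.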

How the results depend on the processing

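Of the 13 calls of single genes, none changed sign in any alternative. The number of genes at 1 CPM in at least 1 sample was 12 to 18 when an animal was left out, 22 at a limit of 0.5 CPM and 14 at 2 CPM, and in every sample it was 7 to 9, 10 and 5, with 5 also on TMM-scaled CPM. Between the breeds the number past the threshold, 3, 4 and 3 at 0, 2 and 8 h, was 1 to 4, 3 to 5 and 1 to 4 when an animal was left out. With the F test it was 1 at 0 h and 1 at 8 h, and the FDR limit alone gave 5 at 0 h. After LPS at 2 h the FDR limit alone gave 1 gene in place of 0, and at 8 h 1 gene remained without the samples with another COL1A1 counting, and 1 to 3 when an animal was left out.

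With the replicate block, the number was 1 after LPS at 2 h and 1 for the interaction at 2 h, LAMB3 in each case. With the block and the FDR limit alone, chosen after seeing the data, it was 4 at 2 h, 8 at 8 h and 1 for the interaction at 2 h. Across the breeds the same number names unrelated animals (mean r -0.071 to -0.107), and the block left 2 calls at 8 h, without DSC3 (FDR = 0.0548), while the F test with the block gave 1, 2 and 1 genes at 0, 2 and 8 h. It changed no other call than these and that of JUP at 8 h after LPS. Low counts limit KRT14, KRT17 and the desmogleins, where a few counts decide a value in all cultures but Holstein 1. The causes of these shifts were not tested.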
